A study of Mus musculus with 24 samples.

Results

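The genes described are the cytochrome P450 enzymes of families Cyp1, Cyp2 (subfamilies Cyp2c to Cyp2u) and Cyp3a that handle drugs, pollutants, steroids and fatty acids. Members were all genes whose symbol starts with Cyp1a, Cyp1b, Cyp2c or a later Cyp2 letter, or Cyp3a, followed by a number. Names marked as pseudogenes were left out, and a value of at least 0.1 in 1 genotype of the table was required. In whole liver 43 of 49 matching names were kept, among 24319 genes listed. In isolated hepatocytes 40 of 49 were kept, among 24319 genes listed. The highest value of the 2 liver members nearest the minimum was 0.133 (Cyp2d34) and 0.148 (Cyp3a57), and of the 2 names just below it 0.0412 (Cyp2c65) and 0.00976 (Cyp2j11). In hepatocytes these were 0.103 (Cyp3a57) and 0.114 (Cyp2d34), and 0.0855 (Cyp2t4) and 0.0480 (Cyp2s1). Of the names left out, 3 of 6 in liver and 4 of 9 in hepatocytes were listed at 0 in all genotypes.

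RNA with a polyA tail was sequenced from 24 libraries of male C57/BL6 mice aged 2 months, in 8 groups of 3 biological replicates. IkkB KO mice carried Alb-Cre+;IkkBf/f, Shp2 KO mice Alb-Cre+;Shp2f/f and Double KO mice Alb-Cre+;IkkBf/f;Shp2f/f, and WT mice carried neither deletion. Each genotype was measured as whole liver and as isolated hepatocytes. The gene Ikbkb encodes IkkB, a kinase upstream of NF-κB, and Ptpn11 encodes Shp2, a phosphatase that promotes Ras-Erk signalling. The albumin promoter drives Cre in hepatocytes, and liver cells in which it is silent keep both genes. The series title places the joint loss of these pathways beside circadian gene activity and liver cancer. For each gene and genotype the authors' deposited table gives 1 expression value, pooled over libraries, which is FPKM (a read count scaled by transcript length and library size) by the convention of the program Cuffdiff. No spread between animals could therefore be computed, and whether groups overlap cannot be read from these values.

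Cytochrome P450 enzymes are heme proteins of the endoplasmic reticulum that add an oxygen atom to fat-soluble compounds, with electrons passed on by the reductase Por and by cytochrome b5. In liver, nuclear receptors switch many of them on when ligands arrive. Ahr acts on Cyp1 genes, and Nr1i2 (PXR) and Nr1i3 (CAR) act on Cyp2c and Cyp3a genes. Many P450 genes, such as Cyp1a2 and Cyp2e1, are highest in hepatocytes around the central vein, where Wnt signalling is active, whereas Cyp2f2 marks hepatocytes around the portal vein. The pattern of growth hormone release makes several mouse P450 genes male-biased (Cyp2d9, Cyp2u1) or female-biased (Cyp2c40, Cyp2c69, Cyp3a16, Cyp3a44).

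The promoter windows of 6 members are shown because Cyp3a11, Cyp2c40 and Cyp2c69 rose in both tables where Shp2 was lost, and the other 3 are relatives from the same clusters. They are the 250 bases before the annotated start, from RefSeq on GRCm38.p6. The expression tables use mm9, so these coordinates belong to GRCm38.p6 alone. Capitals mark nuclear receptor half-sites, AGGTCA or AGTTCA on either strand. Cyp3a11 lies at chr5:145879855-145880104 (minus strand), Cyp3a25 at chr5:146009619-146009868 (minus strand) and Cyp3a59 at chr5:146079008-146079257 (plus strand). Cyp2c69 lies at chr19:39886770-39887019 (minus strand), Cyp2c68 at chr19:39741102-39741351 (minus strand) and Cyp2c40 at chr19:39812815-39813064 (minus strand).
Cyp3a11: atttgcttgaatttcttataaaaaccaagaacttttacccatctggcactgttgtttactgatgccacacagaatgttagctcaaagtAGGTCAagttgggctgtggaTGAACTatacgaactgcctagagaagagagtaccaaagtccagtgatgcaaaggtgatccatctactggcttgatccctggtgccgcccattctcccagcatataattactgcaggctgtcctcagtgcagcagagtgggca
Cyp3a25: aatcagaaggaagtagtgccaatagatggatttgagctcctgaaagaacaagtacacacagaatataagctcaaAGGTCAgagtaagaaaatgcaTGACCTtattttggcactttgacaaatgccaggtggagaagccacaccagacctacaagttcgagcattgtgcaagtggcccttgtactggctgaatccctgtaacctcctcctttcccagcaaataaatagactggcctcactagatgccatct
Cyp3a59: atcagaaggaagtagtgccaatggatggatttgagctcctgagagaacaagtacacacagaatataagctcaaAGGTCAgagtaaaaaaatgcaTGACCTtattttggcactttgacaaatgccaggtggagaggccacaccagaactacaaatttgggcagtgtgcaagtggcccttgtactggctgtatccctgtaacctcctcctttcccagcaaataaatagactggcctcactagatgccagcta
Cyp2c69: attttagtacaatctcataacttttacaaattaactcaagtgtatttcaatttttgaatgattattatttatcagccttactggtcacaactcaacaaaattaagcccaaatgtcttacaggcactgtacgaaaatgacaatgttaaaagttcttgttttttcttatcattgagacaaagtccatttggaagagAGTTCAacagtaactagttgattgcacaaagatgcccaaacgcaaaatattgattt
Cyp2c68: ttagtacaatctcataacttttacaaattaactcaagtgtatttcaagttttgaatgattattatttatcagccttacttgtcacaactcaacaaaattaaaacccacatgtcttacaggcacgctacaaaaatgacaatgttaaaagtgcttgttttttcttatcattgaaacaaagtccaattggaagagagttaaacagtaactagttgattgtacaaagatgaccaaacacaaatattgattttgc
Cyp2c40: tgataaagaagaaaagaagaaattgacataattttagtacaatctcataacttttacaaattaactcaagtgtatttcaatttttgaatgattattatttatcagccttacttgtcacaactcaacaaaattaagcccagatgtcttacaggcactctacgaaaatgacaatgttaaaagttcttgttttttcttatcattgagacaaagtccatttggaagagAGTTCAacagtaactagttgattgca
In these windows Cyp3a11 held 2 half-sites, 162 and 142 bases before the start. Cyp3a25 and Cyp3a59, whose windows were 94.8% identical, held 2 each. Cyp2c69 and Cyp2c40 held 1 each, and Cyp2c68, 91.3% identical to Cyp2c69, held none. Among all 32851 windows in the table, 7937 held such a half-site (24.2%). Among the members with a window, 14 of 35 did in at least 1 window (40%). The first share is counted by window and the second by gene, so the 2 are not like measures. A match is a string of letters and not a measured binding site.

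The targeted genes were lower where the labels say so, although RNA from undeleted cells and from exons outside the deletion can remain. Ikbkb had a value of 9.48 in IkkB KO, 14.2 in Shp2 KO, 6.31 in Double KO and 15.7 in WT livers, and 7.16 in IkkB KO, 15.1 in Shp2 KO, 5.29 in Double KO and 17.3 in WT hepatocytes. Ptpn11 had 10.1 in IkkB KO, 4.09 in Shp2 KO, 6.09 in Double KO and 12.5 in WT livers, and 14.5 in IkkB KO, 4.47 in Shp2 KO, 5.77 in Double KO and 16.3 in WT hepatocytes. Cell type markers moved with genotype. The 11 macrophage markers summed to 525 in IkkB KO, 419 in Shp2 KO, 856 in Double KO and 335 in WT livers, and to 460.4 in IkkB KO, 273 in Shp2 KO, 351 in Double KO and 132 in WT hepatocytes. All 11 passed the test as higher in Double KO livers and in IkkB KO hepatocytes against WT, as did 3 of 11 in IkkB KO and 3 of 11 in Shp2 KO livers, and 9 of 11 in Shp2 KO and 10 of 11 in Double KO hepatocytes. The shares of all tested genes that were higher were 11.5% for Double KO, 5.23% for Shp2 KO and 2.37% for IkkB KO livers. For hepatocytes they were 9.04% for Double KO, 7.13% for Shp2 KO and 7.6% for IkkB KO. The 10 stellate cell and fibroblast markers summed to 91.6 in IkkB KO, 106 in Shp2 KO, 186 in Double KO and 91.2 in WT livers, and to 119 in IkkB KO, 57.7 in Shp2 KO, 66.2 in Double KO and 30.2 in WT hepatocytes. The 8 endothelial markers summed to 77.3 in IkkB KO, 56.8 in Shp2 KO, 78.95 in Double KO and 79.7 in WT livers, and to 73.5 in IkkB KO, 41.4 in Shp2 KO, 67.6 in Double KO and 36.4 in WT hepatocytes. The 5 bile duct markers summed to 33.6 in IkkB KO, 45.9 in Shp2 KO, 143 in Double KO and 57.4 in WT livers, and to 27.2 in IkkB KO, 40.5 in Shp2 KO, 57.5 in Double KO and 14.5 in WT hepatocytes. Of the 10 hepatocyte markers, Alb and Serpina1c were listed at 0 in every genotype of both tables, and Apoa1 in IkkB KO and WT livers and in IkkB KO hepatocytes, so these 3 were left out of the sum. The other 7 summed to 13102 in IkkB KO, 10225 in Shp2 KO, 8322 in Double KO and 12374 in WT livers, and to 12275 in IkkB KO, 7969.5 in Shp2 KO, 11049.9 in Double KO and 12442 in WT hepatocytes. Against WT livers their median log2 difference was 0.05 for IkkB KO, -0.15 for Shp2 KO and -0.13 for Double KO, and of the 7 only G6pc passed, lower in Double KO. In Double KO livers 6.62% of all tested genes were lower. Against WT hepatocytes the median was 0.01 over 7 tested markers in IkkB KO, and, with Apoa1, -0.26 over 8 in Shp2 KO and -0.24 over 8 in Double KO. By Cuffdiff's q-value 1 of 8 fell in Shp2 KO hepatocytes (Apoa1), and none passed in IkkB KO or Double KO hepatocytes (1 higher in IkkB KO and 1 lower in Double KO at an unadjusted p under 0.05). In Shp2 KO hepatocytes 4.53% of all tested genes were lower. The part of the cell type markers in the P450 results was not tested, and in bulk RNA fewer cells of a type and less RNA per cell cannot be told apart.

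Summed over all members, P450 values were lowest in Double KO livers and in IkkB KO hepatocytes. The sum was 13489.7 in IkkB KO, 10711 in Shp2 KO, 8218 in Double KO and 12423 in WT livers, and 5961 in IkkB KO, 8075 in Shp2 KO, 7576 in Double KO and 8836 in WT hepatocytes. Cyp2e1, which oxidises ethanol and acetaminophen, was the most abundant member in every liver genotype. Its share of the summed values was 42.4% in IkkB KO, 40.5% in Shp2 KO, 35.4% in Double KO and 36.6% in WT livers, and 17.2% in IkkB KO, 16.9% in Shp2 KO, 27.3% in Double KO and 26.5% in WT hepatocytes. The make-up differed most in Cyp3a, whose share was 4.54% in IkkB KO, 13.5% in Shp2 KO, 22.6% in Double KO and 4.72% in WT livers, and 5.87% in IkkB KO, 25.6% in Shp2 KO, 18.4% in Double KO and 5.32% in WT hepatocytes. The Shp2 KO and Double KO genotypes thus had the high Cyp3a shares in both tables, while IkkB KO and WT were close to each other. The Cyp2d subfamily summed to 2734 in IkkB KO, 1657 in Shp2 KO, 1109 in Double KO and 2925 in WT livers, and to 1570.2 in IkkB KO, 1244 in Shp2 KO, 1068 in Double KO and 1935 in WT hepatocytes. The Cyp2c subfamily summed to 2711 in IkkB KO, 2176 in Shp2 KO, 1547 in Double KO and 2591 in WT livers, and to 1085 in IkkB KO, 2025 in Shp2 KO, 1679 in Double KO and 1844 in WT hepatocytes. Because each table has its own normalisation, no level is compared across them.

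**Figure D1:**
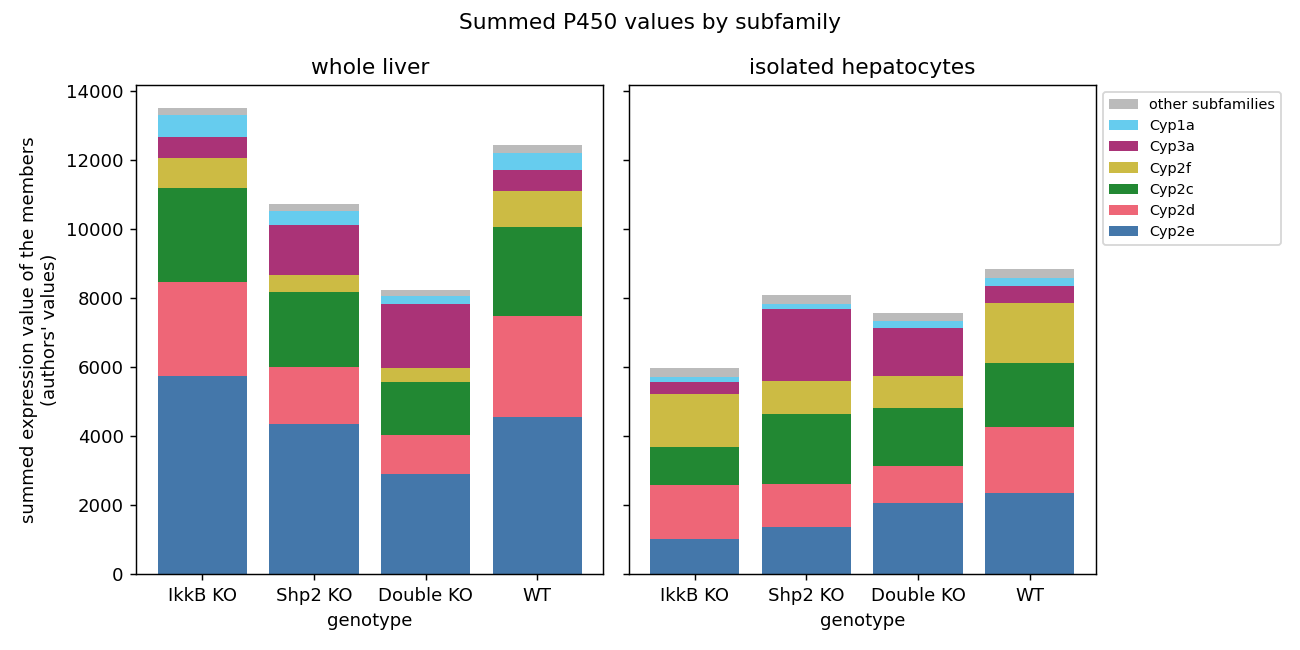
Stacked bars give the summed expression values of the members by subfamily, for each genotype of whole liver (left) and isolated hepatocytes (right). The Cyp3a block is widest in Shp2 KO and Double KO, and the bars are lowest for Double KO livers and IkkB KO hepatocytes.

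**Figure D2:**
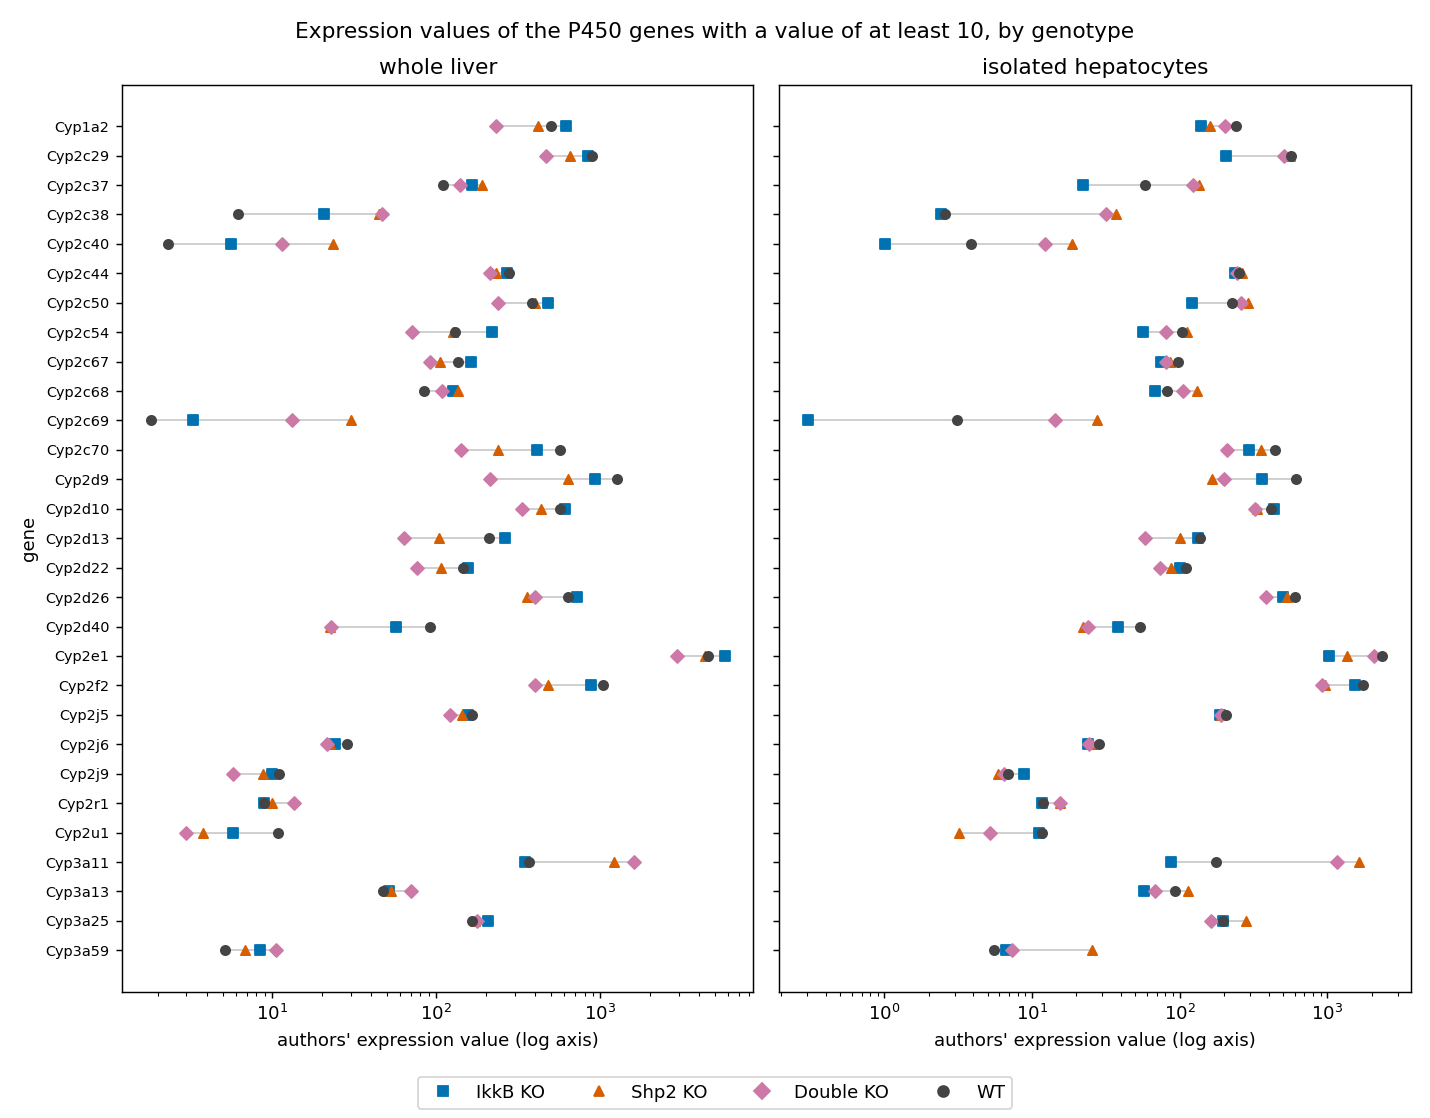
Points give the expression value of each member with at least 10 in 1 genotype, on a log axis that differs between whole liver (left) and isolated hepatocytes (right). Cyp3a11, Cyp2c38, Cyp2c40 and Cyp2c69 have the Shp2 KO and Double KO points to the right of WT in both panels, and Cyp2d9 and Cyp2f2 have them to the left.

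A member was taken to have risen or fallen where the q-value of Cuffdiff in the authors' deposited table was under 0.05, among members that the program tested. Differences are on the log2(value + 1) scale, which understates changes of low genes. In Shp2 KO against WT livers, 8 members rose and 7 fell of 36 tested, against 5.23% of all tested genes higher and 4.1% lower. The members' median difference was -0.26 and that of all tested genes -0.03. In Shp2 KO against WT hepatocytes, 10 rose and 4 fell of 34 tested, against 7.13% and 4.53% of all genes, with a median of 0.00 for the members and -0.01 for all tested genes. The 8 that rose in liver all rose in hepatocytes (8 of 8 and 8 of 10): Cyp2c37, Cyp2c38, Cyp2c39, Cyp2c40, Cyp2c68, Cyp2c69, Cyp2g1 and Cyp3a11. Among those that fell, Cyp2d9, Cyp2d40, Cyp2f2 and Cyp2u1 fell in both tables (4 of 7 in liver and 4 of 4 in hepatocytes).

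Double KO livers had the most members past the threshold against WT, with 9 higher and 16 lower of 39 tested. Of all tested genes 11.5% were higher and 6.62% lower, so the members' share was 23.1% higher and 41.0% lower. The members' median was -0.39 and that of all tested genes -0.03. In Double KO against WT hepatocytes, 8 rose and 8 fell of 34 tested, against 9.04% and 4.56% of all genes, with a median of -0.16 and 0.01 over all tested genes. Cyp2c38, Cyp2c39, Cyp2c40, Cyp2c69 and Cyp3a11 rose in both tables (5 of 9 and 5 of 8). Cyp2c70, Cyp2d9, Cyp2d13, Cyp2d22, Cyp2d26, Cyp2d40, Cyp2f2 and Cyp2u1 fell in both (8 of 16 and 8 of 8).

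IkkB KO alone gave unlike results in liver and in hepatocytes. In IkkB KO against WT livers, 8 members rose and 3 fell of 35 tested, against 2.37% of all tested genes higher and 2.17% lower, with a median of 0.10 for the members and -0.01 for all tested genes. In IkkB KO against WT hepatocytes, none rose by Cuffdiff's q-value (1 was higher at an unadjusted p under 0.05) and 11 fell of 35 tested. There, 7.6% of all tested genes were higher and 1.81% lower, and the median was -0.26 for the members and 0.00 over all tested genes. No member moved past the threshold in the same direction in both tables. The count in liver rested in part on calls near the threshold: 7 of the 11 passed a q-value of 0.01, and 7 passed when p-values were adjusted within that comparison alone.

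**Figure D3:**
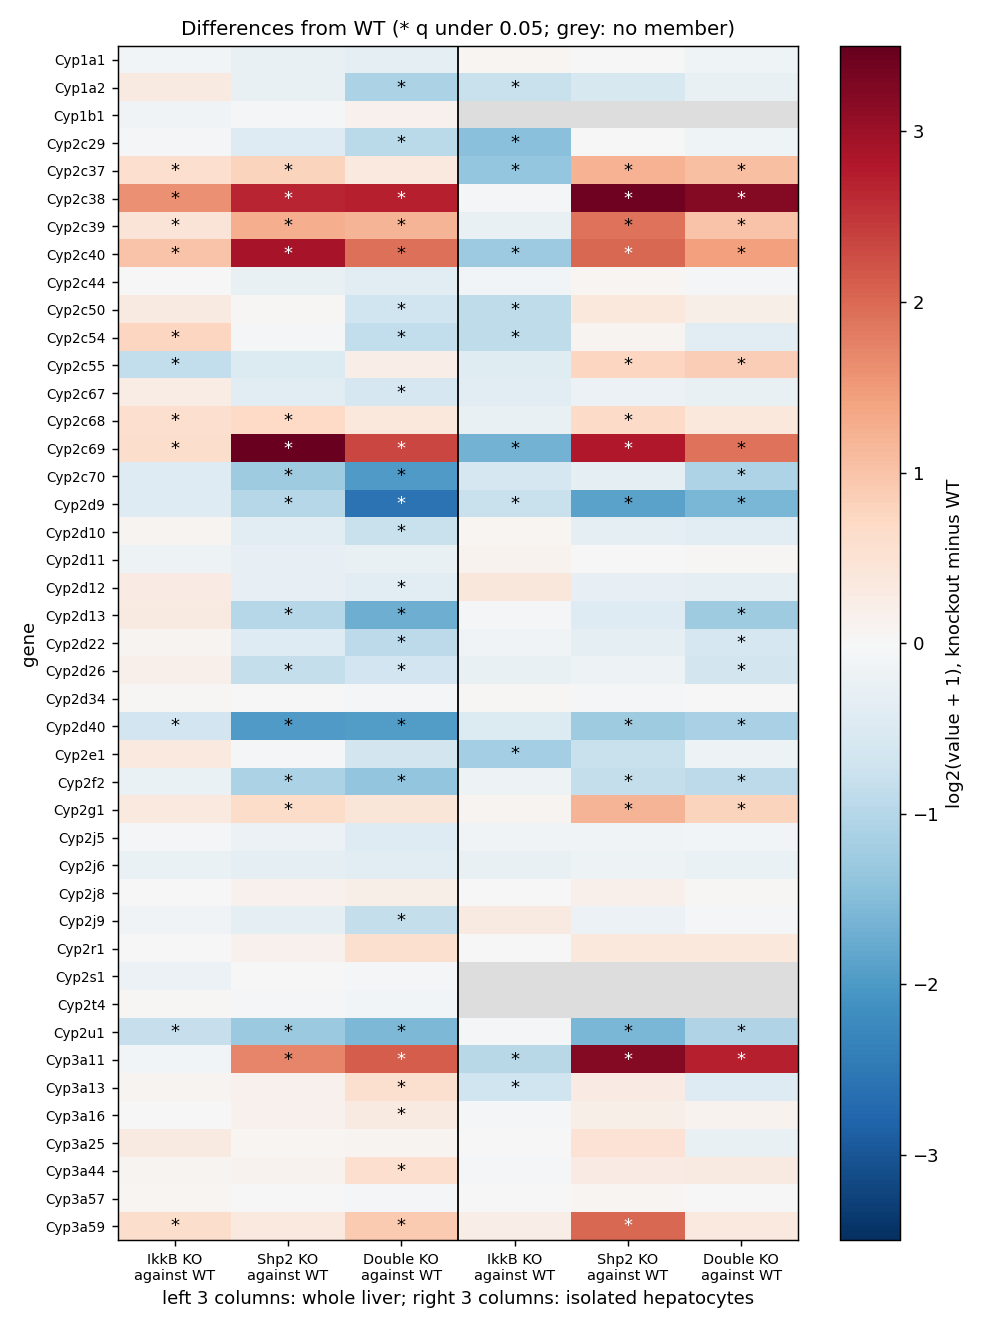
Colours give the difference in log2(value + 1), knockout minus WT, for every member (rows) in whole liver (left 3 columns) and isolated hepatocytes (right 3 columns), and a star marks a q-value under 0.05. Cyp2c38, Cyp2c40, Cyp2c69 and Cyp3a11 are red with stars in the Shp2 KO and Double KO columns of both tables, and the Cyp2d rows are mostly blue there.

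Cyp3a11, the main mouse counterpart of the human drug-metabolising enzyme CYP3A4 and a PXR target, rose in Shp2 KO and Double KO mice in both tables. Its value was 346 in IkkB KO, 1215 in Shp2 KO, 1596 in Double KO and 368 in WT livers. It was 87.99 in IkkB KO, 1645 in Shp2 KO, 1155 in Double KO and 175 in WT hepatocytes. Shp2 KO and Double KO were the high genotypes in both tables, and IkkB KO was close to WT in liver and below it in hepatocytes. The Shp2 KO value was 3.30 times the WT value in liver and 9.40 times in hepatocytes, with q-values of 0.000955 and 0.00048 in the authors' deposited table of each. The Double KO value was 4.33 times WT in liver and 6.6 times in hepatocytes. In IkkB KO hepatocytes Cyp3a11 fell to 0.503 times the WT value, a log2 difference of -0.98 (q = 0.00127 in the authors' deposited table).

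In each comparison of Shp2 KO or Double KO with WT, Cyp3a11 had a larger log2 difference than any other Cyp3a gene, though not always the larger ratio. Cyp3a25, next to Cyp3a11 among the members on chromosome 5, had a value of 208 in IkkB KO, 172 in Shp2 KO, 177 in Double KO and 165 in WT livers, and no liver comparison passed. It had 198 in IkkB KO, 281 in Shp2 KO, 163 in Double KO and 197 in WT hepatocytes, and only Double KO against Shp2 KO passed, lower by Cuffdiff. Cyp3a13, which lies apart from that cluster, had 51.1 in IkkB KO, 52.7 in Shp2 KO, 70.2 in Double KO and 47.6 in WT livers, with a log2 difference of 0.55 in Double KO against WT (q = 0.0351 in the authors' deposited table). Cyp3a13 had 57.3 in IkkB KO, 114 in Shp2 KO, 67.5 in Double KO and 92.97 in WT hepatocytes, and it fell in IkkB KO against WT and in Double KO against Shp2 KO. Cyp3a59 had 8.42 in IkkB KO, 6.82 in Shp2 KO, 10.5 in Double KO and 5.13 in WT livers, and it rose in IkkB KO and in Double KO against WT. It had 6.64 in IkkB KO, 25.4 in Shp2 KO, 7.35 in Double KO and 5.56 in WT hepatocytes, where Shp2 KO alone stood apart, at 4.58 times WT. Of the 50-base stretches of its transcript, 24.7% also occur in Cyp3a25, so reads can be assigned to either gene. The female-biased Cyp3a16 and Cyp3a44 stayed under 1 in every genotype. Cyp3a44 had 0.114 in IkkB KO, 0.140 in Shp2 KO, 0.559 in Double KO and 0.0378 in WT livers, and Cyp3a16 had 0.0922 in IkkB KO, 0.193 in Shp2 KO, 0.334 in Double KO and 0.0797 in WT livers, and both rose in Double KO against WT livers. There Cyp3a44 was 14.8 times WT (log2 difference 0.59, q = 0.0281) and Cyp3a16 4.19 times WT (log2 difference 0.30, q = 0.0417) in the authors' deposited table. In total 5 of 6 tested Cyp3a genes rose in Double KO against WT livers, 1 of 4 in Shp2 KO and 1 of 4 in IkkB KO livers. Among all tested genes 11.5% were higher in Double KO, 5.23% in Shp2 KO and 2.37% in IkkB KO livers. With a minimum value of 1, Cyp3a16 and Cyp3a44 would not count. Of their 50-base stretches, 26.5% for Cyp3a44 and 10.7% for Cyp3a16 occur in another gene, so how their reads were split is uncertain.

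The Cyp2c subfamily, epoxygenases of arachidonic acid and hydroxylases of drugs and steroids, split into genes that rose and genes that fell. Of 13 tested Cyp2c genes, 6 rose and 1 fell in Shp2 KO against WT livers, and 7 rose and none fell in hepatocytes (none lower at an unadjusted p under 0.05 either). In Double KO against WT, 4 rose and 5 fell in livers, and 6 rose and 1 fell in hepatocytes. In IkkB KO against WT, 7 rose and 1 fell in livers, and none rose and 6 fell in hepatocytes (none higher at an unadjusted p under 0.05). For Shp2 KO against WT, 5.23% of all tested genes were higher and 4.1% lower in livers, and 7.13% and 4.53% in hepatocytes. For Double KO these shares were 11.5% and 6.62% in livers, and 9.04% and 4.56% in hepatocytes. For IkkB KO they were 2.37% and 2.17% in livers, and 7.6% and 1.81% in hepatocytes. Along chromosome 19 the 7 genes that rose in Shp2 KO hepatocytes were not one unbroken block. Cyp2c55 comes before Cyp2c29, which did not rise, then come Cyp2c39 and Cyp2c38, then Cyp2c67, which did not rise either, and then Cyp2c68, Cyp2c40, Cyp2c69 and Cyp2c37.

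**Figure D4:**
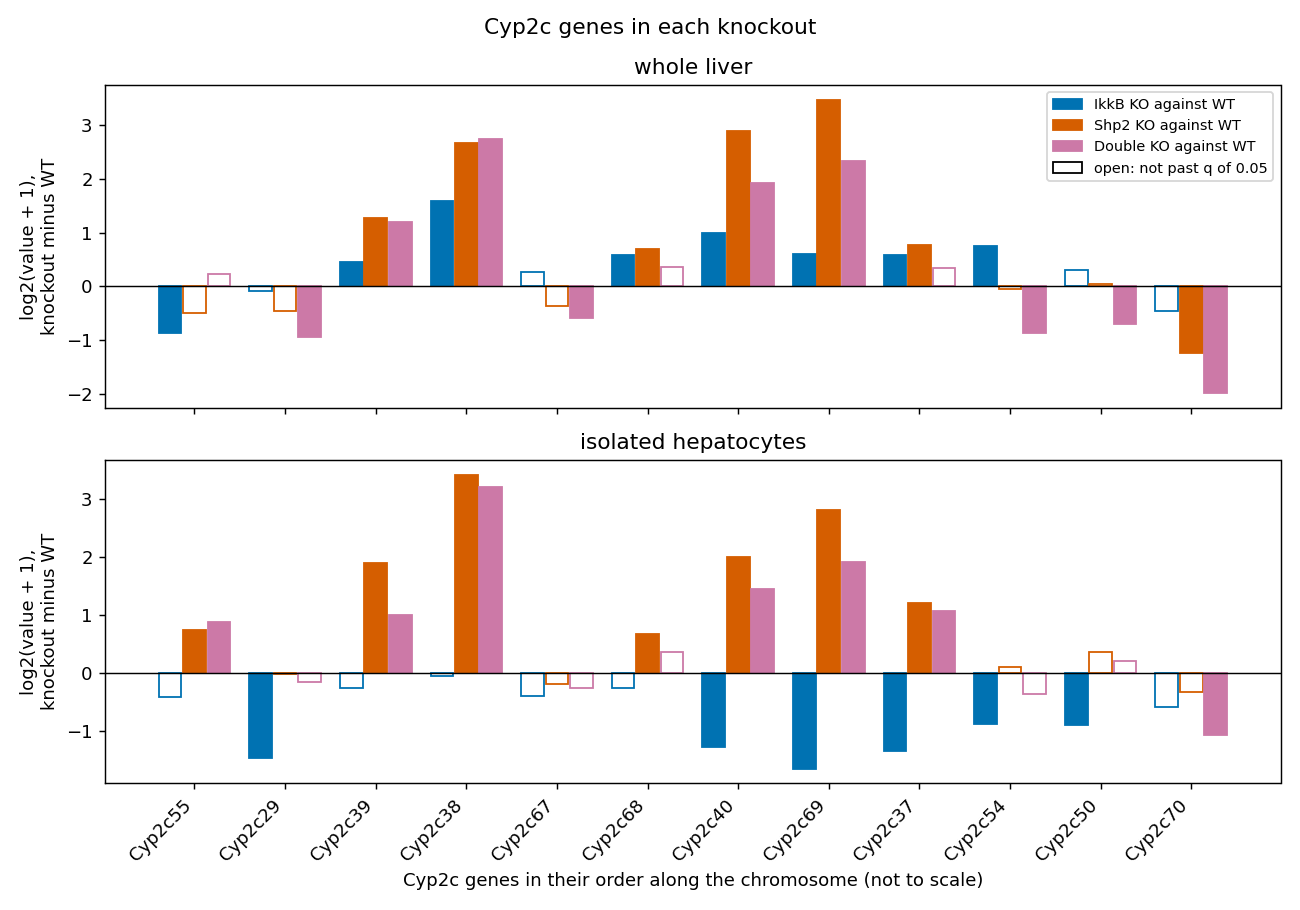
Bars give the difference in log2(value + 1), each knockout minus WT, for 12 Cyp2c genes in chromosome order, in whole liver (top) and isolated hepatocytes (bottom), and open bars did not pass a q-value of 0.05. Cyp2c38, Cyp2c40 and Cyp2c69 have the tall Shp2 KO and Double KO bars in both panels, and the IkkB KO bars of Cyp2c40, Cyp2c69, Cyp2c37 and Cyp2c54 point up in liver and down in hepatocytes.

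Cyp2c69 and Cyp2c40, female-biased genes, were low in WT and rose with loss of Shp2. Their promoter windows were 77.5% identical, at 217 positions of an alignment of 280. The half-site lies 56 bases before the start in Cyp2c69 and 26 in Cyp2c40. The windows are thus offset, and their unmatched ends count as differences. That figure cannot be ranked against the identity of Cyp2c68 to Cyp2c69. Cyp2c69 had 3.30 in IkkB KO, 30.2 in Shp2 KO, 13.2 in Double KO and 1.82 in WT livers, and Shp2 KO was 16.6 times WT (log2 difference 3.47, q = 0.000955 in the authors' deposited table). Cyp2c69 had 0.304 in IkkB KO, 27.6 in Shp2 KO, 14.4 in Double KO and 3.09 in WT hepatocytes, so Shp2 KO was highest and IkkB KO lowest. Cyp2c40 had 5.57 in IkkB KO, 23.4 in Shp2 KO, 11.5 in Double KO and 2.31 in WT livers, a log2 difference of 2.88 for Shp2 KO and 1.92 for Double KO against WT. Cyp2c40 had 1.01 in IkkB KO, 18.6 in Shp2 KO, 12.3 in Double KO and 3.88 in WT hepatocytes. For both genes Double KO lay between Shp2 KO and WT in each table, and Double KO against Shp2 KO livers passed as lower (-1.14 for Cyp2c69 and -0.96 for Cyp2c40). Cyp2c68, with a promoter 91.3% identical to that of Cyp2c69, was already at 83.6 in WT livers and reached 136 in Shp2 KO livers (1.63 times WT). These genes share sequence: 72.1% of the 50-base stretches of Cyp2c40, 54.8% of Cyp2c69, 52.8% of Cyp2c67 and 43.3% of Cyp2c68 occur in another gene, so how their reads were split is uncertain.

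Cyp2c38, of which 7.45% of stretches are shared, had the largest log2 difference from WT among the members in hepatocytes. Its value was 2.43 in IkkB KO, 37.1 in Shp2 KO, 31.8 in Double KO and 2.57 in WT hepatocytes, and Shp2 KO was 14.4 times and Double KO 12.4 times WT. It was 20.6 in IkkB KO, 44.6 in Shp2 KO, 46.7 in Double KO and 6.18 in WT livers. All 3 knockouts rose above WT in liver, with log2 differences of 1.59 for IkkB KO, 2.67 for Shp2 KO and 2.73 for Double KO (q = 0.000955 each in the authors' deposited table), whereas IkkB KO against WT hepatocytes did not pass (-0.06). Its neighbour Cyp2c39, which acts on retinoic acid, was low throughout, with 0.936 in IkkB KO, 2.43 in Shp2 KO, 2.25 in Double KO and 0.414 in WT livers, and 0.253 in IkkB KO, 4.57 in Shp2 KO, 1.98 in Double KO and 0.495 in WT hepatocytes. It rose in Shp2 KO and Double KO against WT in both tables. Of the 50-base stretches of Cyp2c39, 12.0% occur in another gene, most often Cyp2c38. Cyp2c38 rose in the same comparisons, so how the reads of the pair were split is uncertain.

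Cyp2c29, Cyp2c37, Cyp2c50 and Cyp2c54 are pericentral epoxygenases that phenobarbital induces through CAR. Cyp2c29 had 843 in IkkB KO, 649.7 in Shp2 KO, 467 in Double KO and 890.4 in WT livers, and fell in Double KO against WT (log2 difference -0.93, q = 0.0062 in the authors' deposited table). Cyp2c29 had 205 in IkkB KO, 558 in Shp2 KO, 509.9 in Double KO and 567 in WT hepatocytes, so there IkkB KO alone was low, at 0.362 times WT. Cyp2c50 and Cyp2c54 shared with Cyp2c29 the lowest genotype, Double KO in liver and IkkB KO in hepatocytes, and differed from it in the highest, which was IkkB KO in liver and Shp2 KO in hepatocytes. Cyp2c50 had 478 in IkkB KO, 397 in Shp2 KO, 237 in Double KO and 384 in WT livers, and 122 in IkkB KO, 291 in Shp2 KO, 262 in Double KO and 226 in WT hepatocytes. Cyp2c54 had 219.6 in IkkB KO, 126 in Shp2 KO, 71.1 in Double KO and 130.1 in WT livers, and 56.2 in IkkB KO, 112 in Shp2 KO, 80.8 in Double KO and 104 in WT hepatocytes. Cyp2c37 did not share the fall in Double KO livers. It had 165 in IkkB KO, 189 in Shp2 KO, 140.1 in Double KO and 111 in WT livers, and rose in IkkB KO and Shp2 KO against WT. Cyp2c37 had 22.1 in IkkB KO, 136 in Shp2 KO, 122 in Double KO and 58.01 in WT hepatocytes, where Shp2 KO and Double KO were above WT and IkkB KO below it.

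Cyp2c70, which makes muricholic acids from other bile acids in mice, fell in Shp2 KO and Double KO livers. Its value was 412 in IkkB KO, 239 in Shp2 KO, 142 in Double KO and 565 in WT livers. Shp2 KO was 0.423 times and Double KO 0.252 times WT, with a q-value of 0.000955 for each in the authors' deposited table. It was 296 in IkkB KO, 356 in Shp2 KO, 211 in Double KO and 445 in WT hepatocytes, and Double KO against WT passed (log2 difference -1.08) while Shp2 KO against WT did not (-0.32). No transcript stretch of Cyp2c70 occurs in another gene. Cyp2c44, another arachidonic acid epoxygenase, passed in no comparison, with 271 in IkkB KO, 229.7 in Shp2 KO, 211 in Double KO and 276 in WT livers, and 236 in IkkB KO, 264 in Shp2 KO, 243 in Double KO and 252 in WT hepatocytes. Cyp2c55, an inducible enzyme best known from the intestine, had 2.17 in IkkB KO, 3.09 in Shp2 KO, 5.77 in Double KO and 4.74 in WT livers, and 1.34 in IkkB KO, 4.23 in Shp2 KO, 4.71 in Double KO and 2.12 in WT hepatocytes. It fell in IkkB KO against WT livers and rose in Shp2 KO and Double KO against WT hepatocytes. Cyp2c67 had 163 in IkkB KO, 105 in Shp2 KO, 90.9 in Double KO and 136 in WT livers, and fell in Double KO against WT livers.

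The Cyp2d genes, which hydroxylate steroids and many amine drugs, moved in 1 direction only where they passed. In livers 7 of 8 tested Cyp2d genes fell in Double KO against WT, 4 of 8 in Shp2 KO and 1 of 8 in IkkB KO. In hepatocytes 5 of 8 fell in Double KO, 2 of 8 in Shp2 KO and 1 of 8 in IkkB KO. None rose in these 6 comparisons by Cuffdiff's q-value, and at an unadjusted p under 0.05 only 1 was higher, in IkkB KO hepatocytes. Among all tested genes 6.62% were lower in Double KO, 4.1% in Shp2 KO and 2.17% in IkkB KO livers. The hepatocyte shares were 4.56% for Double KO, 4.53% for Shp2 KO and 1.81% for IkkB KO. Cyp2d9, the male-biased testosterone hydroxylase, was the highest Cyp2d gene in WT of both tables, and 29.0% of its 50-base stretches occur in another gene. It had 928 in IkkB KO, 635 in Shp2 KO, 212 in Double KO and 1270.4 in WT livers, and Double KO was 0.167 times WT (log2 difference -2.58, q = 0.000955 in the authors' deposited table). Cyp2d9 had 359.7 in IkkB KO, 166 in Shp2 KO, 200.01 in Double KO and 612 in WT hepatocytes, where all 3 knockouts fell against WT and Shp2 KO was lowest. The IkkB KO call there was lost with p-values adjusted within the comparison.

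Cyp2d40 fell in every liver knockout, with 56.9 in IkkB KO, 22.3 in Shp2 KO, 22.8 in Double KO and 90.9 in WT livers and log2 differences of -0.67 for IkkB KO, -1.98 for Shp2 KO and -1.95 for Double KO against WT. It had 38.3 in IkkB KO, 22.1 in Shp2 KO, 24.1 in Double KO and 53.97 in WT hepatocytes, and Shp2 KO and Double KO passed. Cyp2d13 had 262 in IkkB KO, 104 in Shp2 KO, 63.7 in Double KO and 209.6 in WT livers, and 133 in IkkB KO, 101 in Shp2 KO, 58.1 in Double KO and 138 in WT hepatocytes. Double KO was its lowest genotype in both tables, below Shp2 KO as well (log2 difference -0.70 in liver, q = 0.0109, and -0.79 in hepatocytes, q = 0.0156 in the authors' deposited table of each), though the hepatocyte call was lost with p-values adjusted within that comparison. Cyp2d26 had 724 in IkkB KO, 356 in Shp2 KO, 401 in Double KO and 639 in WT livers, and fell in Shp2 KO and Double KO livers. Cyp2d22, a mouse relative of human CYP2D6, had 155 in IkkB KO, 107 in Shp2 KO, 76.2 in Double KO and 145 in WT livers, and fell in Double KO livers. Cyp2d10 had 606 in IkkB KO, 433 in Shp2 KO, 333 in Double KO and 569 in WT livers, fell in Double KO livers, and shares 40.5% of its stretches with another gene. In hepatocytes Cyp2d10 passed in no comparison, and Cyp2d22 and Cyp2d26 fell in Double KO against WT with q-values of 0.0345 and 0.0467 in the authors' deposited table, calls lost when p-values were adjusted within that comparison. Cyp2d12 stayed at or under 1.05 in every genotype, and Cyp2d11 and Cyp2d34 under 1.

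Cyp1a2, a pericentral Ahr target that metabolises caffeine, fell in Double KO livers. It had 619 in IkkB KO, 417 in Shp2 KO, 231 in Double KO and 502 in WT livers, a log2 difference of -1.11 for Double KO against WT (q = 0.000955 in the authors' deposited table). It had 140.0 in IkkB KO, 161 in Shp2 KO, 202 in Double KO and 240.0 in WT hepatocytes, and IkkB KO alone fell (-0.77, q = 0.0259 in the authors' deposited table), a call lost when p-values were adjusted within that comparison. Cyp1a1, the other inducible Ahr target, stayed under 1 in every genotype and passed nowhere. Cyp1b1, mainly expressed outside hepatocytes, had at most 0.417 in liver, in Double KO, and was under the minimum in hepatocytes.

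Cyp2e1 had 5724 in IkkB KO, 4343 in Shp2 KO, 2909 in Double KO and 4549 in WT livers, and no liver comparison passed. The log2 difference of Double KO against WT livers was -0.64 (q = 0.381 in the authors' deposited table). It had 1026 in IkkB KO, 1366 in Shp2 KO, 2069 in Double KO and 2339.5 in WT hepatocytes, and IkkB KO against WT passed (-1.19, q = 0.0234 in the authors' deposited table), though not with p-values adjusted within that comparison. Both Cyp1a2 and Cyp2e1 are pericentral, as are Cyp2c29, Cyp2c50 and Cyp2c54, and in each of these 5 genes Double KO was the lowest liver genotype and IkkB KO the lowest hepatocyte genotype. Cyp2c37 and Cyp3a11, the other pericentral members, were also lowest in IkkB KO hepatocytes but not in Double KO livers. The pattern of the 5 genes is not particular to the pericentral list. Cyp2c44, Cyp2c67, Cyp2j5 and Cyp2j6 had the same lowest genotypes, and periportal Cyp2f2 was also lowest in Double KO livers.

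Cyp2f2, the periportal enzyme that activates naphthalene, fell with loss of Shp2 in both tables. It had 880.4 in IkkB KO, 479.6 in Shp2 KO, 398 in Double KO and 1042 in WT livers, and 1545 in IkkB KO, 969 in Shp2 KO, 920.1 in Double KO and 1743 in WT hepatocytes. Against WT the log2 difference in livers was -1.12 for Shp2 KO and -1.39 for Double KO, and in hepatocytes -0.85 for Shp2 KO and -0.92 for Double KO. With p-values adjusted within the comparison, Shp2 KO against WT hepatocytes no longer passed. IkkB KO against WT did not pass in either table (-0.24 in liver and -0.17 in hepatocytes).

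Cyp2u1, a male-biased hydroxylase of long-chain fatty acids, had 5.76 in IkkB KO, 3.81 in Shp2 KO, 2.96 in Double KO and 10.8 in WT livers, and all 3 knockouts fell against WT (log2 difference -0.81 for IkkB KO, -1.30 for Shp2 KO and -1.58 for Double KO, q = 0.000955 each in the authors' deposited table). Cyp2u1 had 11.1 in IkkB KO, 3.21 in Shp2 KO, 5.17 in Double KO and 11.7 in WT hepatocytes, so IkkB KO was near WT there and Shp2 KO lowest. Cyp2g1, best known from the olfactory mucosa, was low, with 1.66 in IkkB KO, 2.23 in Shp2 KO, 1.77 in Double KO and 1.08 in WT livers, and 0.632 in IkkB KO, 2.49 in Shp2 KO, 1.62 in Double KO and 0.528 in WT hepatocytes. It rose in Shp2 KO against WT in both tables. Cyp2j5, a male-biased epoxygenase, had 157 in IkkB KO, 142 in Shp2 KO, 122 in Double KO and 166 in WT livers, and 189 in IkkB KO, 189.8 in Shp2 KO, 191 in Double KO and 205 in WT hepatocytes, and passed in no comparison. Of the 3 male-biased members, Cyp2d9 and Cyp2u1 fell in Shp2 KO and Double KO livers and Cyp2j5 did not pass. Cyp2j6 also passed nowhere, though Cyp2j9 fell in Double KO livers (-0.84 against WT). Cyp2r1, a 25-hydroxylase of vitamin D, had 8.86 in IkkB KO, 9.90 in Shp2 KO, 13.6 in Double KO and 8.90 in WT livers, and passed nowhere, with a log2 difference of 0.56 in Double KO against WT livers (q = 0.0636 in the authors' deposited table).

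Joint loss of both genes was compared with each single loss. In Double KO against IkkB KO livers, 8 members rose and 16 fell of 39 tested, against 11.5% of all tested genes higher and 7.5% lower, with a median of -0.24 for the members and 0.00 over all tested genes. In hepatocytes 11 rose and 5 fell of 35 tested, against 5.75% and 5.62% of all genes, with a median of 0.12 for the members and -0.01 over all tested genes. Cyp3a11 rose in both, at 4.62 times IkkB KO in livers and 13.1 times in hepatocytes. Set against Shp2 KO livers, Double KO livers had 3 members that rose and 9 that fell of 38 tested, against 7.94% and 2.83% of all genes, with a median of -0.22 for the members and 0.00 over all tested genes. In hepatocytes none rose by Cuffdiff's q-value (1 was higher at an unadjusted p under 0.05) and 7 fell of 33 tested, against 3.44% and 3.31% of all genes, with medians of -0.15 and 0.03. Cyp2c69, Cyp2c70 and Cyp2d13 fell in both tables (3 of 9 and 3 of 7). Cyp2d9 fell in Double KO against Shp2 KO livers, with a log2 difference of -1.58, and so did Cyp1a2, with -0.85 (q = 0.000955 and 0.00732 in the authors' deposited table). Cyp3a11 did not pass in Double KO against Shp2 KO in either table (0.39 in liver and -0.51 in hepatocytes). Shp2 KO against IkkB KO was available in liver, where 5 members rose and 8 fell of 36 tested, against 5.43% and 4.84% of all genes, with medians of -0.25 and -0.01. Cyp2c69 led the rises (2.86) and Cyp2d13 the falls (-1.33). These comparisons share libraries with those against WT and with each other.

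The IkkB KO results differed in sign between the tables for 4 Cyp2c genes that passed in both. Cyp2c37, Cyp2c40, Cyp2c54 and Cyp2c69 rose in IkkB KO against WT livers and fell in IkkB KO against WT hepatocytes. In liver the log2 difference was 0.58 for Cyp2c37, 0.99 for Cyp2c40, 0.75 for Cyp2c54 and 0.61 for Cyp2c69. In hepatocytes it was -1.35 for Cyp2c37, -1.28 for Cyp2c40, -0.88 for Cyp2c54 and -1.65 for Cyp2c69. With p-values adjusted within the liver comparison, Cyp2c40 and Cyp2c54 still passed and Cyp2c37 and Cyp2c69 did not. The difference between the tables was itself not tested. IkkB KO was also the hepatocyte genotype with the highest sums of macrophage, stellate cell and endothelial markers, though not of bile duct markers. The part of these in the falls was not tested. The 7 tested hepatocyte markers had a median difference of 0.01 in that comparison.

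**Figure D5:**
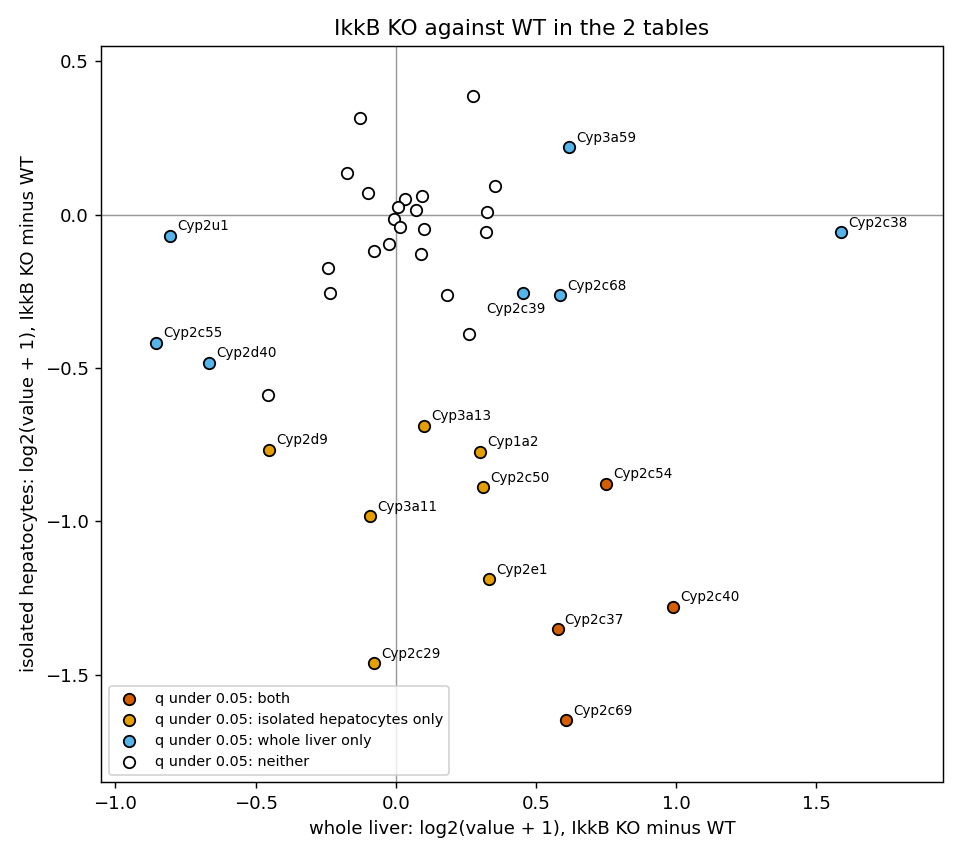
Each point is a member, placed by its IkkB KO minus WT difference in log2(value + 1) in whole liver (horizontal) and in isolated hepatocytes (vertical), and coloured by where the q-value was under 0.05. Cyp2c37, Cyp2c40, Cyp2c54 and Cyp2c69 lie at the lower right, higher in IkkB KO livers and lower in IkkB KO hepatocytes.

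Genes that serve or control the P450 enzymes were read from a list of 26 electron carriers, heme enzymes, receptors and receptor targets. Against WT, 2 of 24 tested rose in IkkB KO, 7 of 24 in Shp2 KO and 5 of 25 in Double KO livers, and 3 of 25 fell, in Double KO livers. Over all tested genes the shares were 2.37% higher for IkkB KO, 5.23% for Shp2 KO and 11.5% for Double KO livers, and 6.62% lower for Double KO livers. In hepatocytes 1 of 25 rose in IkkB KO, 5 of 25 in Shp2 KO and 6 of 25 in Double KO, and none fell (2, 1 and 1 were lower at an unadjusted p under 0.05). There 7.6% of all tested genes were higher for IkkB KO, 7.13% for Shp2 KO and 9.04% for Double KO, so the single gene in IkkB KO is no larger a share than that of all genes. The epoxide hydrolase Ephx1, a CAR target, had 643 in Shp2 KO livers and 266 in WT livers, and 586 in Double KO livers and 266 in WT livers. It rose in Shp2 KO and Double KO hepatocytes as well, to 569 in Shp2 KO and 647 in Double KO, against 234 in WT. Abcb1a, a drug exporter, had 4.80 in Shp2 KO and 1.60 in Double KO against 0.407 in WT hepatocytes. Gadd45b and the heme oxygenase Hmox1 rose in the same comparisons of both tables. Por, named after its values were seen, had 264 in IkkB KO, 325 in Shp2 KO, 310.1 in Double KO and 171 in WT livers. It had 112 in IkkB KO, 349 in Shp2 KO, 166 in Double KO and 170.1 in WT hepatocytes. The carriers Cyb5a and Cyb5r3 fell in Double KO against WT livers. Nr1i2 had 46.2 in IkkB KO livers and 32.1 in WT livers, and 46.4 in Shp2 KO livers and 32.1 in WT livers, past the threshold in each. Nr1i3 was listed at 0 in IkkB KO and Shp2 KO livers, and had 48.7 in Double KO and 87.6 in WT livers. A listed 0 need not be a measured absence, as Alb was also listed at 0 in every genotype. Nr1i3 is therefore not read as lost in those livers. It had 37.3 in IkkB KO, 60.3 in Shp2 KO, 35.2 in Double KO and 49.2 in WT hepatocytes. Ahr rose in Shp2 KO livers, where its targets among the members, Cyp1a1 and Cyp1a2, did not pass. Other genes of the list differed in direction there. Nqo1 had 14.1 in Shp2 KO and 3.04 in WT livers, and Tiparp had 0.870 in Shp2 KO and 1.44 in WT livers. Ahrr was under the minimum, with 0.0348 in Shp2 KO and 0.0293 in WT livers.

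Zone markers outside the members were read in the same way. The 7 pericentral genes (Glul, Oat, Axin2, Slc1a2, Gulo, Lgr5 and Tbx3) summed to 1412 in IkkB KO, 1919.5 in Shp2 KO, 1818 in Double KO and 1191 in WT livers, and to 261 in IkkB KO, 314 in Shp2 KO, 1112 in Double KO and 478 in WT hepatocytes. Against WT livers none of them passed in IkkB KO (none at an unadjusted p under 0.05 either), and 1 of 7 rose in Shp2 KO and 2 of 7 in Double KO. Among all tested genes 5.23% were higher in Shp2 KO and 11.5% in Double KO livers. Of the 7, 6 rose in Double KO against WT hepatocytes, and in IkkB KO and in Shp2 KO hepatocytes 3 of 7 fell. Among all genes tested there, 9.04% were higher in Double KO, and 1.81% were lower in IkkB KO and 4.53% in Shp2 KO. Glul, the glutamine synthetase of the innermost pericentral cells, had 246 in Double KO hepatocytes and 109.8 in WT hepatocytes. Of the pericentral members, Cyp2c37 and Cyp3a11 rose in Double KO against WT hepatocytes. Cyp1a2, Cyp2e1, Cyp2c29, Cyp2c50 and Cyp2c54 did not pass in that comparison. The 8 periportal genes other than Cyp2f2 summed to 5847 in IkkB KO, 4697 in Shp2 KO, 4492 in Double KO and 4427 in WT livers, where WT had the lowest sum. Of these, 1 of 8 fell in Shp2 KO and 2 of 8 in Double KO livers, and none passed in IkkB KO livers (1 was higher at an unadjusted p under 0.05), with median differences of 0.38 for IkkB KO, -0.23 for Shp2 KO and -0.12 for Double KO. Among all tested genes 4.1% were lower in Shp2 KO and 6.62% in Double KO livers. The 8 periportal genes summed to 8580.3 in IkkB KO, 7556 in Shp2 KO, 5721 in Double KO and 8583 in WT hepatocytes, and 3 of 8 fell in Double KO, 1 of 8 in Shp2 KO and none in IkkB KO against WT hepatocytes (none lower there at an unadjusted p under 0.05). Among all tested genes 4.56% were lower in Double KO, 4.53% in Shp2 KO and 1.81% in IkkB KO hepatocytes. The part of the zone markers in the P450 results was not tested.

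Every member is accounted for. In liver 30 of 43 passed in at least 1 of 6 comparisons (30 of the 39 tested, against 28.8% of all genes tested in any of them), 9 were tested and passed in none, and 4 were not tested by Cuffdiff in any (Cyp2d34, Cyp2s1, Cyp2t4 and Cyp3a57). In hepatocytes 26 of 40 passed in at least 1 of 5 comparisons (26 of the 35 tested, against 24.4% of all genes), 9 were tested and passed in none, and 5 were not tested in any (Cyp2d34, Cyp2j8, Cyp3a16, Cyp3a44 and Cyp3a57). Cyp1a1, Cyp2c44, Cyp2d11, Cyp2j5, Cyp2j6 and Cyp2r1 passed in none in both tables. Among the 41 members with a coding transcript in the annotation, 8 shared no 50-base stretch with another gene and 13 shared 25% or more. Cyp1b1, Cyp2c70, Cyp2f2, Cyp2j9, Cyp2r1, Cyp2s1, Cyp2t4 and Cyp3a13 are the 8 with none. Cyp2c44 and Cyp2d13 had no coding transcript in that annotation, so their shared sequence is unknown.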

How the data were processed

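PolyA RNA of 24 libraries (3 per group, 8 groups) was sequenced after Illumina TruSeq v2 library preparation. Whole liver and hepatocytes had different RNeasy extraction kits, per the labels' protocols. FastQC, Cuffdiff and the build mm9 are named in the submitters' processing notes; no source used here names the aligner, annotation, read length or strand setting. The expression value deposited by the authors is 1 number for each gene in each genotype, unnamed in the header and FPKM by the convention of Cuffdiff. The deposited log2 fold changes were replaced by differences in log2(value + 1), and the deposited test statistic, a score, was not used. Each p-value and q-value was taken from the authors' Cuffdiff output. Liver q-values were recomputed as Benjamini-Hochberg adjusted p-values over all 6 pairs, to within 5.27e-07; hepatocyte q-values over the 5 pairs there differed by up to 0.284. The smallest p-value was 5e-05 in both tables, and the smallest q-value 0.000955 in liver and 0.00048 in hepatocytes.

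The tables hold 0 columns of single samples, so depth and precision are unknown, neither an SD nor an interval could be given, and p-values cover what Cuffdiff modelled. A gene was called where Cuffdiff tested it, its value was at least 0.1 in 1 of the 2 genotypes and its q-value was under 0.05. Every called member, and every member with a value of at least 10, could be named. From the other lists the plan was up to 4 called genes per comparison, which was exceeded for Shp2 KO against WT livers. Nr1i3, Nqo1, Tiparp and Ahrr were named outside that plan, whether or not called. Members and lists were chosen with earlier results of these data known. Alternatives were a q-value of 0.01, p-values adjusted within the comparison, a log2 difference of at least 1, a minimum of 1 or none, a pseudocount of 0.1 and centring on the median gene. Transcripts of GENCODE M21 were cut into 50-base stretches to find shared sequence. Promoters came from RefSeq on GRCm38.p6. Computations used Python 3.11.15, biopython 1.88, matplotlib 3.10.9, scipy 1.17.1, pandas 2.3.3 and numpy 2.4.6, and the adjustment was tested on simulated data.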

Additional observations from a re-analysis of the deposited data

Results flagged for a closer look

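For 7 members, whole liver and isolated hepatocytes passed the threshold in opposite directions under the same contrast. The values given are the whole liver log2 difference minus the hepatocyte log2 difference, and these differences between tables were not tested. In IkkB KO against WT they were 1.93 for Cyp2c37, 2.27 for Cyp2c40, 1.63 for Cyp2c54 and 2.26 for Cyp2c69, each higher in IkkB KO livers and lower in IkkB KO hepatocytes. In Double KO against IkkB KO they were -2.16 for Cyp2c29 and -2.10 for Cyp2c50, lower in Double KO livers and higher in Double KO hepatocytes. In Double KO against Shp2 KO the value was 2.22 for Cyp3a59, higher in Double KO livers and lower in Double KO hepatocytes. All 4 genes of the first contrast share at least 25% of their 50-base stretches with another gene, as do Cyp2c50 and Cyp3a59, whereas Cyp2c29 shares 2.08%. The part of shared reads was not tested.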

How the results depend on the processing

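No paired analysis was possible because the tables hold 1 value per genotype and no value per library. For the same reason leaving out each replicate was not run, and Shp2 KO against IkkB KO was not run in hepatocytes, where the table does not hold that pair. Calls rest on the deposited q-values. A pseudocount of 0.1 and no minimum value cannot remove or reverse a call, so they test nothing here, and centring on the median gene, which could turn a direction, turned none of 164 member calls. A minimum of 1 kept 155, adjustment within the comparison 152, a q-value of 0.01 130 and a log2 difference of at least 1 82. In liver, the 11 members past the threshold in IkkB KO against WT became 7 at a q-value of 0.01, 7 with adjustment within the comparison and 1 with a log2 difference of at least 1. With that last limit, 25 became 12 in Double KO against WT, 24 became 13 in Double KO against IkkB KO, 12 became 2 in Double KO against Shp2 KO (7 at a q-value of 0.01) and 13 became 7 in Shp2 KO against IkkB KO. In hepatocytes, 11 became 5 in IkkB KO against WT (7 at a q-value of 0.01), 16 became 10 in Double KO against WT, 16 became 10 in Double KO against IkkB KO and 7 became 1 in Double KO against Shp2 KO. A higher limit admits fewer genes by construction. Recomputed hepatocyte q-values did not equal those in the table, depth is unknown, and the WT value enters 3 comparisons of each table.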

Other observations

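Pseudogenes beside the members had values of their own. Cyp2d37-ps had 102 in IkkB KO, 53.5 in Shp2 KO, 23.5 in Double KO and 106 in WT livers, and 48.1 in IkkB KO, 26.2 in Shp2 KO, 27.9 in Double KO and 57.3 in WT hepatocytes. Cyp2c53-ps had 0.642 in IkkB KO, 0.0384 in Shp2 KO, 0.0246 in Double KO and 0.841 in WT livers, and 0.1003 in IkkB KO, 0.0328 in Shp2 KO, 0.0188 in Double KO and 0.437 in WT hepatocytes. Cyp3a41a, whose name ends in a letter and so is no member, had at most 0.0301 in any genotype.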
